A study of Mus musculus with 17 samples.

Results

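Mir17hg, Mcm7, Dleu2 and Smc4 are the mouse genes whose transcripts carry the miR-17-92, miR-106b-25, miR-15a/16-1 and miR-15b/16-2 clusters. These 4 of the 49585 genes quantified in mouse plasma cell-free RNA (cfRNA) were taken by gene name. Mir17hg and Mcm7 were chosen by their measured counts, for being higher in AG than in GC (groups defined below), so their levels are a description with no test. Dleu2 and Smc4 were added as the hosts of the other pair of clusters.

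The cfRNA came from plasma of wild-type C57BL/6J mice aged 13 weeks. Of the 17 libraries, 6 were from mice kept on the International Space Station under artificial 1-G (AG), 6 from mice kept there in microgravity (MG) and 5 from ground control mice (GC). AG and MG mice therefore shared launch, flight and return. The labels give each library as a separate sample, and p-values measure the spread between these samples.

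MicroRNAs are cut as hairpins from longer transcripts and, in their mature form, guide repression of mRNAs that match their seed, bases 2 to 8 from the 5′ end. The miR-17-92 and miR-106b-25 clusters are known for promoting growth and survival of dividing blood precursors, and are activated by the Myc and E2F factors. The miR-15 and miR-16 families are known for restraining cyclins and Bcl2. Mcm7 encodes a subunit of the MCM helicase, which unwinds DNA at replication forks, and Smc4 encodes a core subunit of condensin, which compacts mitotic chromosomes. Mir17hg and Dleu2 are noncoding.

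The seeds show how the 4 hosts are related. The mature microRNAs of the 13 microRNA genes in the clusters follow as listed by RefSeq on GRCm38.p6, 5′ to 3′, with the seed in capitals. Those of Mir17hg come first, then those of Mcm7, Dleu2 and Smc4.
miR-17-5p: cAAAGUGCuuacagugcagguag
miR-18a-5p: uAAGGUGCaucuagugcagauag
miR-19a-3p: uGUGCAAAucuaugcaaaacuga
miR-20a-5p: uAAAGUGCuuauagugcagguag
miR-19b-3p: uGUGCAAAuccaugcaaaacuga
miR-92a-3p: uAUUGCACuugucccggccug
miR-106b-5p: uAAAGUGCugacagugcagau
miR-93-5p: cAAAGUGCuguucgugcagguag
miR-25-3p: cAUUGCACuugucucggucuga
miR-15a-5p: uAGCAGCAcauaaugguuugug
miR-16-5p, from both Mir16-1 and Mir16-2: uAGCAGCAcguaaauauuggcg
miR-15b-5p: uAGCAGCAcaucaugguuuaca
The seed AAAGUGC was shared by 4 genes of the Mir17hg and Mcm7 clusters, Mir17, Mir20a, Mir106b and Mir93. The seed AUUGCAC was shared by Mir92-1 of Mir17hg and Mir25 of Mcm7. All 4 microRNA genes of Dleu2 and Smc4 carried AGCAGCA. The seeds GUGCAAA (Mir19a and Mir19b-1) and AAGGUGC (Mir18) occurred only in Mir17hg among these clusters.

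The hosts differ in whether the hairpins lie in their exons, which bears on whether a hairpin fragment can count for the host. Positions were taken from GENCODE M21, whose assembly GRCm38 is the mm10 named in the labels. Mir17hg (ENSMUSG00000089726.2) lies at chr14:115042879-115046727 on the plus strand, with 1 annotated transcript. All 6 of its hairpins lie within its exon and cover 536 of 3536 exonic bases, 15.2%. Mcm7 (ENSMUSG00000029730.16) lies at chr5:138164583-138172422 on the minus strand, with 10 transcripts. Mir93 and Mir25 lie in the exon of a single retained-intron transcript and cover 172 of 4426 exonic bases, 3.89%, while Mir106b lies in no exon. It is in an intron of 2 of the 10 transcripts, and the other 8 do not reach it.

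Dleu2 (ENSMUSG00000097589.9) lies at chr14:61602839-61682373 on the minus strand, with 15 transcripts. Mir15a lies in no exon of Dleu2, and Mir16-1 is touched by an exon of 1 transcript without being held in it. Smc4 (ENSMUSG00000034349.14) lies at chr3:69004738-69034623 on the plus strand, with 11 transcripts. Mir15b and Mir16-2 lie in an intron of 5 of them, and the other 6 do not reach the hairpins. The lengths that the RPKM values imply equal the GENCODE exon lengths for Mir17hg, Mcm7 and Smc4. For Dleu2 they imply 6169 bases against 11334 in GENCODE, so the authors counted another model of this gene.

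**Figure D1:**
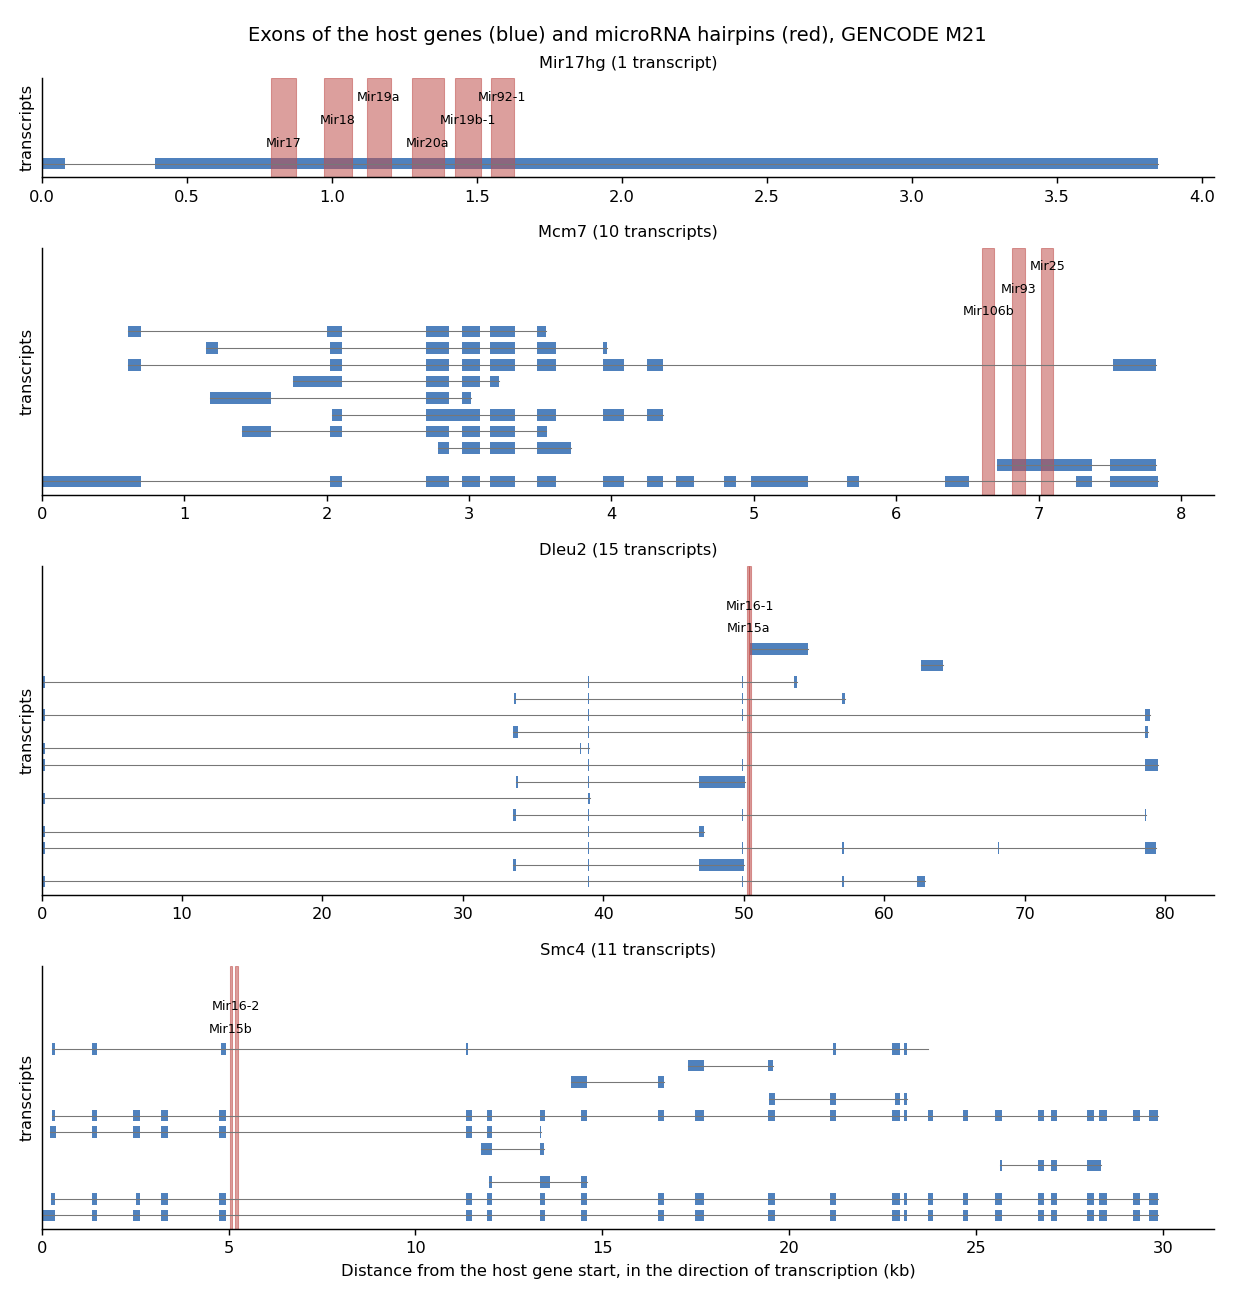
Exons of each annotated transcript (blue) and microRNA hairpins (red) of the 4 host genes, against the distance from the host gene start in kb. All 6 hairpins of Mir17hg fall in its long exon, and those of Smc4 fall in no exon.

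Depth limits every value. The libraries summed to 84657 to 277682 counts, and 4 genes outside the clusters, Tmem38b, Polr2m, Lars2 and Rn18s-rs5, took 86.9% to 91.7% of the counts in AG, 70.6% to 83.5% in MG and 76.9% to 83.1% in GC. The counts left for all other genes were therefore a smaller share in AG, so scaling bears on every comparison with AG. Levels below are CPM after TMM scaling, counts set to a common library total and composition over the 272 genes kept by the edgeR expression filter. TMM factors ran from 0.482 to 0.907 in AG, from 0.577 to 1.92 in MG and from 0.525 to 1.74 in GC. The number of reads limits the precision of each value. The mapped reads that the RPKM values imply were 1596032 to 9796884 per library, far more than the counts. CPM and RPKM thus rest on different totals.

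Mir17hg and Mcm7 were read in all 17 libraries, with 718 and 596 reads in total, ranks 67 and 79 among all genes. Smc4 had 18 reads in 8 libraries and Dleu2 had 3 reads in 2 libraries. On the RPKM scale, which is per length, the mean level over the 17 libraries was 3.10 for Mir17hg, 2.01 for Mcm7, 0.0615 for Smc4 and 0.00586 for Dleu2. The hosts of the miR-17 family were thus readable in plasma, and the hosts of the miR-15/16 family were at or near the limit of detection. In plasma, fewer cells of a type releasing RNA and less RNA per cell cannot be told apart.

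Mir17hg reads ran from 19 to 105 in AG (median 51) and from 28 to 77 in MG (median 40). The 5 GC libraries held 24, 21, 13, 34 and 30 reads. In CPM, AG ran from 244 to 750 (median 476), MG from 173 to 624.8 (median 227), and the GC libraries were at 175, 77.8, 80.7, 341 and 125. AG replicates 3, 4 and 5 and MG replicate 4 were the highest, and GC replicates 2 and 3 the lowest. The groups overlapped, since GC replicate 4 lay above AG replicates 2 and 6 and above all MG libraries but one.

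The Mir17hg level averaged 467 ± 210 CPM (SD) over the 6 AG libraries, 282 ± 171 over the 6 MG libraries and 160 ± 109 over the 5 GC libraries. In the edgeR fit over 272 genes the log2 fold change of AG against GC was 1.56 ± 0.50 (SE), where the median of all genes was −0.21. MG against AG was −0.73 ± 0.45, with a median of 0.17 over all genes. MG against GC was 0.84 ± 0.49, with a median of −0.003. The order of the means was AG, MG, GC, and the SDs of neighbours in that order overlapped. The comparisons share their AG, MG or GC libraries and are not independent of each other.

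Scaling moved these values together with the rest of the genes. Without scaling factors, on total counts, Mir17hg was 0.79 ± 0.51 higher in AG than in GC on the log2 scale, while the median of all genes was −1.11. On that scale MG against AG turned to 0.25 ± 0.47, while the median of all genes was 1.21. Relative to the median of all genes, MG against AG was −0.90 after TMM scaling and −0.96 on total counts. The lower level in MG than in AG is thus a statement relative to other genes, and in CPM of all counts, with no factors, the means were 345 ± 176 in MG and 290 ± 112 in AG (SD, n = 6 each), with medians of 304 and 308. The higher mean of MG rests on MG replicate 4, at 659, and without it, a value added after the data were seen, MG averaged 283 ± 95.8 (SD, n = 5).

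Mcm7 split within AG. AG replicates 1 to 4 held 65, 69, 132 and 85 reads, and AG replicates 5 and 6 held 15 and 10. The 6 MG libraries ran from 7 to 48 reads (median 19), and the GC libraries held 23, 34, 4, 17 and 14. In CPM, AG replicates 1 to 4 were at 312 to 776 and replicates 5 and 6 at 235 and 131. MG ran from 33.6 to 390 (median 108), and GC was at 168, 126, 24.8, 171 and 58.4. After TMM scaling AG replicates 1 to 5 thus lay above all GC libraries, while AG replicate 6 fell among them. In RPKM and in CPM of all counts 4 of the 6 AG libraries lay above all GC libraries, and AG replicate 5 also fell among GC.

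The Mcm7 level averaged 464 ± 277 CPM (SD) over the 6 AG libraries, 147 ± 129 over the 6 MG libraries and 109.5 ± 65.5 over the 5 GC libraries. The log2 fold change was 2.10 ± 0.62 (SE) for AG against GC, −1.68 ± 0.57 for MG against AG and 0.42 ± 0.61 for MG against GC. The MG and GC levels differed by less than their spread. As a share of all counts, with no scaling factors, AG against GC was 1.22 ± 0.61 and MG against AG −0.92 ± 0.56, so the direction of both was kept on that scale. On log2(RPKM + 1) MG against GC was −0.16 ± 0.39, the opposite sign to the count fit, and without MG replicate 4 the count fit gave −0.15.

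AG replicates 5 and 6 also stood apart in platelet markers. The summed level of the 7 platelet markers was 266 to 640 CPM in these 2 libraries and 1003 to 3321 in the other 15. The 7 liver markers summed to 188 to 2663 CPM in them, against 9.03 to 86.6 in AG replicates 1 to 4, with up to 3242 in a library of MG. The 8 leukocyte markers summed to 17 to 22 reads in them, within the 13 to 45 of the other 15 libraries. After TMM scaling these sums were 266 to 287 CPM against 81.6 to 260, but in CPM of all counts 132 to 147, within the 82.0 to 396 of the others. The summed level of the 10 erythroid markers after TMM scaling, 12412 to 17604 CPM in replicates 5 and 6, lay within the 10069 to 25368 of the other AG libraries. In CPM of all counts it was 5717 to 9748 against 8922 to 19319, and in reads 951 to 1126 against 1878 to 2902. The part of these transcripts in the Mcm7 result was not tested.

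Without AG replicates 5 and 6, a choice made after the values were seen, Mcm7 was 2.61 ± 0.62 (SE) higher in AG than in GC on the log2 scale, and MG against AG was −2.11 ± 0.57. These 2 libraries held the lowest Mcm7 levels of AG, so wider differences follow from leaving them out. Mir17hg moved less, to 1.70 ± 0.48 and −0.74 ± 0.45, but its highest AG library was among those left out. Nothing is read from these values about either gene. The Mir17hg level was high in AG replicate 5, at 750 CPM, where Mcm7 was at 235 CPM. In AG replicate 6 they were at 248 and 131 CPM.

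No host gene had every AG library above every GC library, or every AG library above every MG library. Of the 272 genes, 1.1% had every AG library above every GC library and 1.84% every AG library above every MG library. In AG against GC, 4 of the 272 genes (1.47%) passed an adjusted p of 0.05 in the edgeR quasi-likelihood test, all higher in AG, and neither Mir17hg nor Mcm7 was among them. Because both were chosen in this comparison, nothing is read from that count.

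**Figure D2:**
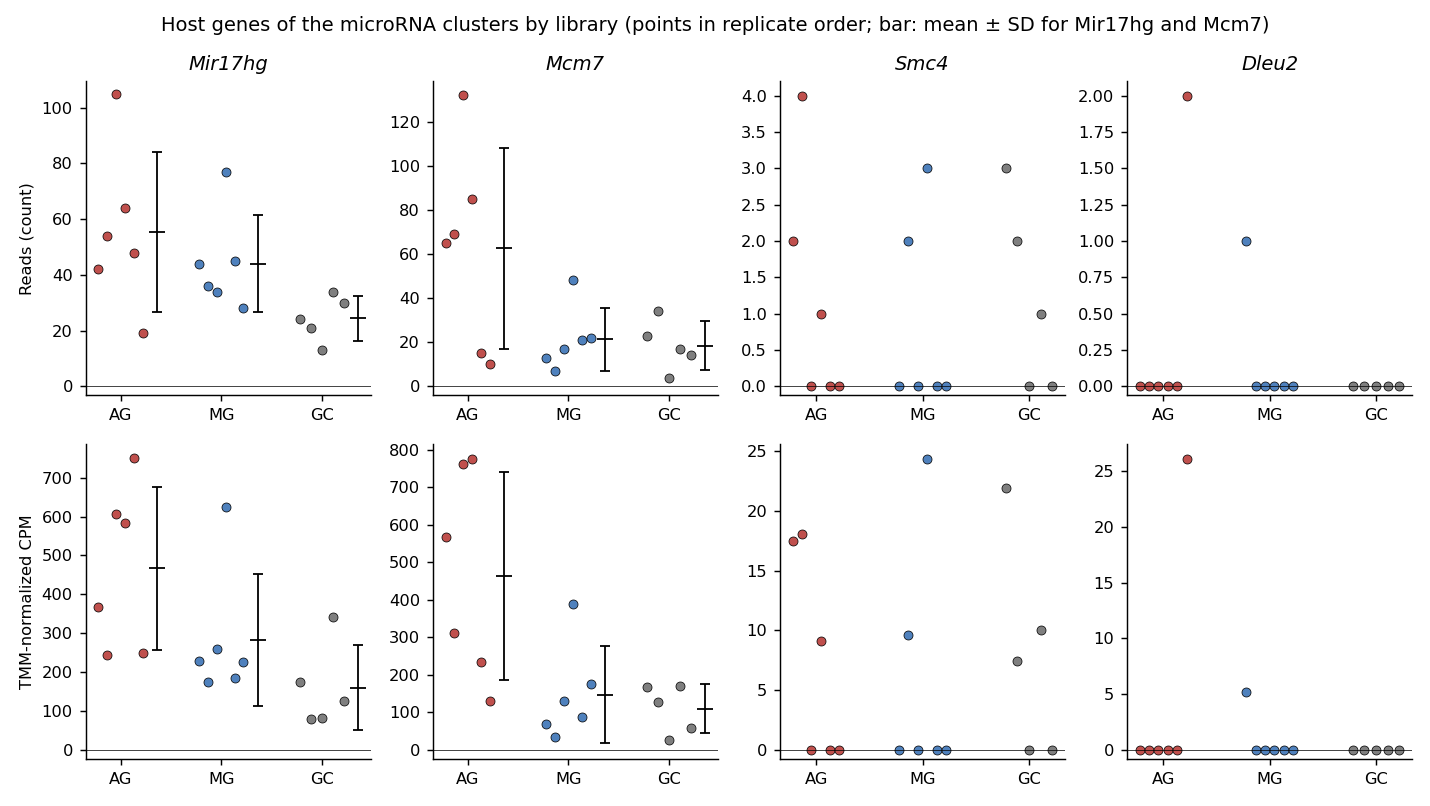
Reads (top) and TMM-normalized CPM (bottom) of the 4 host genes in each of the 17 libraries, by group, with points in replicate order and bars for the mean ± SD of Mir17hg and Mcm7. AG replicates 1 to 4 stand at 65 to 132 Mcm7 reads and AG replicates 5 and 6 at 15 and 10, while Smc4 reaches at most 4 reads and Dleu2 at most 2.

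**Figure D3:**
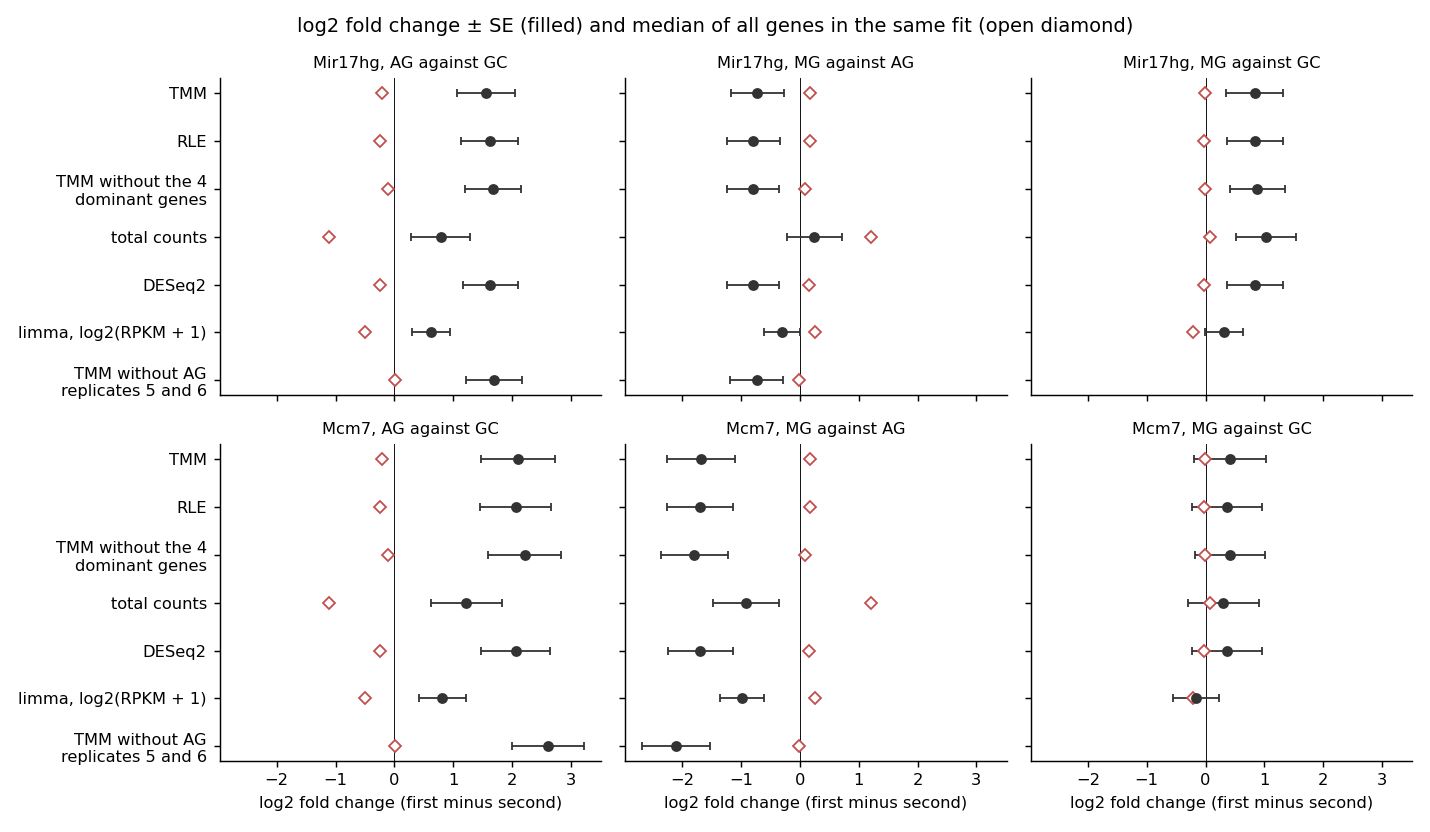
log2 fold change ± SE of Mir17hg and Mcm7 in each pair of groups under 7 settings (filled points), with the median of all genes in the same fit (open diamonds). Without scaling factors Mir17hg in MG against AG crosses 0 to 0.25 while the median of all genes moves to 1.21.

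Smc4 had 2, 4, 0, 1, 0 and 0 reads in the AG libraries, 0, 2, 0, 3, 0 and 0 in MG, and 3, 2, 0, 1 and 0 in GC. Every group held libraries with reads and libraries without, and the groups overlapped fully. Smc4 was too low for the expression filter and was fitted among the 6270 genes with at least 5 reads. The log2 fold change was 0.16 ± 1.12 (SE) for AG against GC (adjusted p = 1.0 in the edgeR quasi-likelihood test), −0.68 ± 1.10 for MG against AG (adjusted p = 0.900) and −0.52 ± 1.15 for MG against GC (adjusted p = 0.958). In that fit 0.0% of genes passed in AG against GC, 0.0957% in MG against AG and 0.159% in MG against GC, and 12.2%, 13.1% and 13.6% had an unadjusted p under 0.05. The range of 2 SE around the AG against GC value, −2.07 to 2.39, holds the rise seen for Mcm7 and a fall of nearly that size. Neither is therefore excluded at this depth. These bounds are not a limit of detection, and larger differences could also fail to pass the test. An exact two-sided permutation test of log2 CPM gave p = 0.773 for MG against AG, 0.740 for MG against GC and 0.844 for AG against GC.

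Dleu2 had 2 reads in AG replicate 6, 1 read in MG replicate 1 and none in the other 15 libraries. With 3 reads it was below the minimum of both fits and has no fold change. The 5 GC libraries together held 0 Dleu2 reads, which allows up to 3.93 CPM of their pooled counts, above the 1.74 CPM of pooled counts read in AG and the 1.19 in MG. The exact two-sided permutation test gave p = 1.0 in all 3 pairs, but with reads in so few libraries no relabelling could give a p below 0.455, so it says nothing about a difference. Adjusted over the 6 tests of Smc4 and Dleu2, every p was 1.0.

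None of the 13 microRNA genes in the 4 clusters had a count or an RPKM above 0 in any library, including the 6 inside the exon of Mir17hg. The count column was 0 for all 2146 microRNA genes of the annotation. In the RPKM column 10 of 1133 microRNA genes that lie inside another gene on the same strand were above 0, and 71 of 1013 that do not. Levels of the mature microRNAs can therefore not be read from the cluster genes in these files, and the host values may hold hairpin fragments and other exonic fragments alike. Where the reads lie along the hosts was not analysed here.

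Mir92-2 is the exception among relatives of these microRNAs. It lies at chrX:52741838-52741928 on the minus strand, outside the 4 hosts, and yields the same mature miR-92a-3p as Mir92-1 of Mir17hg. The RefSeq hairpins are shown because the mature part, in capitals, is identical while the flanks differ.
Mir92-1: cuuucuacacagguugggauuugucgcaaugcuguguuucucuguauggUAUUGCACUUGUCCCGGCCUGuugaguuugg
Mir92-2: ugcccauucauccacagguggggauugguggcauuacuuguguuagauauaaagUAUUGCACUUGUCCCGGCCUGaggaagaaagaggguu
The RPKM of Mir92-2 was above 0 in all 17 libraries, whereas the RPKM of Mir92-1 was 0 in all of them. The reads that its RPKM implies were whole numbers, from 2 to 20 in AG (median 7), from 3 to 12 in MG (median 5), and 7, 4, 1, 9 and 1 in GC. Its RPKM averaged 22.8 ± 18.9 (SD) over the AG libraries, 14.2 ± 2.40 over MG and 16.8 ± 18.6 over GC, and the groups overlapped. A read of the mature sequence alone matches both loci, and how such reads were assigned is not given in the sources used here. Of the 17 microRNA genes outside the clusters with one of these seeds, Mir92-2 included, Mir195a was above 0 in 4 libraries, Mir322 in 2, and Mir106a, Mir20b and Mir92b in 1 each.

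Mir17hg and Mcm7 varied together across libraries in TMM-normalized CPM. Pearson's r of their log2 CPM was 0.77 over the 17 libraries and 0.65 after the group means were taken out. It was 0.47 within AG (n = 6), 0.86 within MG (n = 6) and 0.63 within GC (n = 5), as a description, since all values share the scaling factors of their library and both genes were chosen for being higher in AG than in GC. The likeness over all 17 libraries uses the values of that choice. On that measure Mir17hg was the gene most like Mcm7 among 271 others, followed by Oaz1 (r = 0.77), an inhibitor of polyamine synthesis, and Epb41 (r = 0.74), a red cell membrane skeleton protein. After the group means were taken out, Mir17hg ranked 2 for Mcm7, and Mcm7 ranked 3 for Mir17hg. For Mir17hg the 3 nearest were Trim39 (r = 0.91), a ubiquitin ligase, then Mcm7 and the histone gene Hist1h3b (r = 0.77). Trim39 and Hist1h3b were among the 4 genes that passed in AG against GC, the comparison in which Mir17hg was chosen. On log2(RPKM + 1) r was 0.68 for the pair, 0.63 for Mir17hg with Mir92-2 and 0.71 for Mcm7 with Mir92-2. Within MG the pair did not rise together in RPKM. Mir17hg was highest in MG replicate 1, at 4.02, where Mcm7 was 0.949. It was lowest in MG replicate 6, at 2.01, where Mcm7 was highest of MG, at 1.26.

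**Figure D4:**
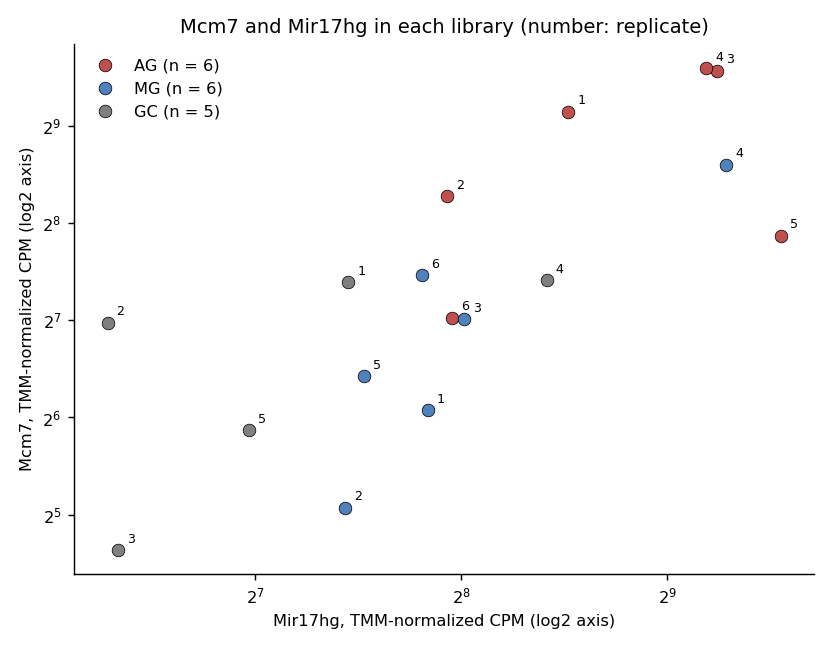
Mcm7 against Mir17hg in TMM-normalized CPM, on log2 axes, with 1 point per library, colored by group and numbered by replicate. The 2 genes rise together, AG replicates 1, 3 and 4 lie at the top, and AG replicate 5 lies below the others of similar Mir17hg level.

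For Smc4 and Dleu2 too few reads were available to describe likeness. Over the 17 libraries r of Smc4 was 0.17 with Mir17hg and 0.39 with Mcm7, and r of Dleu2 was −0.03 and −0.13. The genes nearest to Smc4 were Gp9 (r = 0.62), a platelet surface glycoprotein, Fhl1 (r = 0.59) and Hbb-bs (r = 0.54), a beta globin. Those nearest to Dleu2 were Tns1 (r = 0.67), Ecm1 (r = 0.60) and Ftl1 (r = 0.57), the ferritin light chain. With 18 and 3 reads these values rest on a few libraries and are no finding.

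The high Mcm7 reads were not shared by the rest of its complex. Of 12 other genes of the MCM helicase and of replication licensing, 6 had no read, and the other 6 had 20 reads in all. Mcm6 had 7 reads, Cdc6, a helicase loader, 4, and Mcm4 and Mcm10 3 each. Mcm2 and Mcm5, which stand in the same ring as Mcm7, had none. Per length, the mean RPKM was 2.01 for Mcm7 and 0.0290 for Mcm6, the highest of the other 5 ring subunits. Mcm6 alone had enough reads for the fit, with a log2 fold change of 1.44 ± 1.39 (SE) in AG against GC (adjusted p = 0.747 in the edgeR quasi-likelihood test).

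Among the relatives of Smc4, the condensin and other SMC genes, 10 of 11 had reads, 264 in all, and 198 of these were in Ncapd2, a condensin regulatory subunit. Ncapd2 was read in all 17 libraries and was −0.54 ± 0.62 (log2 fold change ± SE) in AG against GC, −0.05 ± 0.61 in MG against AG and −0.59 ± 0.61 in MG against GC, with adjusted p of 0.737, 0.985 and 0.994 in the edgeR quasi-likelihood test. Its mean RPKM was 0.509 against 0.0615 for Smc4. Smc2, the direct partner of Smc4, had no read. Smc5 had 17 reads, none of them in AG, and the cohesin genes Smc1a and Smc3 had 14 each.

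Other genes of dividing cells were low. Of 11 proliferation genes 9 had reads, led by Top2a, the topoisomerase that untangles replicated DNA, with 5 reads in AG, 17 in MG and 22 in GC, and Mki67 with 6, 5 and 5. Pcna had 7 reads and Ccnb1 6. None of the 5 fitted proliferation genes passed in AG against GC, and their log2 fold changes went both ways, from −3.29 for Rrm2, whose 5 reads were all in 1 GC library, so that the value depends on that library and the prior count, to 0.84 for Ccnb1, with a median of −0.44 against −0.05 for all 6270 genes. The share of dividing precursors among the sources of plasma RNA was not tested.

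Of the 5 regulators of the clusters, E2f2 had 36 reads, 18 in AG, 13 in MG and 5 in GC, and a log2 fold change of 1.71 ± 0.96 (SE) in AG against GC with an adjusted p of 0.457. Myc had 7 reads, all in MG. E2f1 had 3 reads, E2f3 2 and Mycn none. Of the 5, E2f2 and Myc could be fitted.

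The 8 known targets of these microRNAs described here held 137 reads. Ccnd3, a cyclin, had 6 reads in AG, 20 in MG and 13 in GC. Its log2 fold change was −1.03 ± 0.96 (SE) in AG against GC (adjusted p = 0.728 in the edgeR quasi-likelihood test). Tgfbr2, a receptor of TGF-beta, had 3, 21 and 9 reads in the same order, and the cyclin genes Ccnd2 and Ccnd1 had 10, 8 and 9 and 7, 4 and 8. The median log2 fold change of the 6 fitted targets was −0.60 in AG against GC, 1.43 in MG against AG and 0.22 in MG against GC, against −0.05, 0.34 and 0.22 for all genes fitted. None passed the test in any pair, and nothing about repression follows from these counts.

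The neighbours and overlapping genes showed little signal. Of 11 such genes 6 had no read. Ift80, next to Smc4, had 16 reads, Taf6 4, and Rnaseh2b and Trim59 2 each. All 5 genes of microRNA processing had reads, led by Ago2, which binds mature microRNAs, with 7 reads in AG, 17 in MG and 8 in GC, then Dicer1 with 12 in all, Dgcr8 with 9 and Xpo5 with 7, all of the last in MG.

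Over these 7 lists, 46 of 63 genes had a read and 25 could be fitted. By the edgeR quasi-likelihood test 0 of the 25 passed in any pair, where 0.0957% of all 6270 genes passed in MG against AG, 0.159% in MG against GC and 0.0% in AG against GC. At an unadjusted p under 0.05 there were 5 in MG against AG, 4 in MG against GC and 3 in AG against GC, where 13.1%, 13.6% and 12.2% of all 6270 genes were under it. DESeq2, the edgeR exact test and limma on log2(RPKM + 1) also passed 0 of the 25, with 0 to 2 genes per pair at an unadjusted p under 0.05. Over all 6270 genes DESeq2 passed 0.144% in MG against AG, 0.0% in MG against GC and 0.112% in AG against GC, and the exact test 0.0638%, 0.144% and 0.0%, while limma passed 0.0% in each pair. At these shares 0 of 25 is close to the background. An unadjusted p under 0.05 was given to 1.53%, 1.53% and 1.9% of all genes by DESeq2 in the same order, to 2.11%, 2.26% and 2.01% by the exact test and to 3.94%, 5.01% and 6.79% by limma. DESeq2 gave no adjusted p for 24 of the 25 in MG against AG and for 23 in AG against GC.

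**Figure D5:**
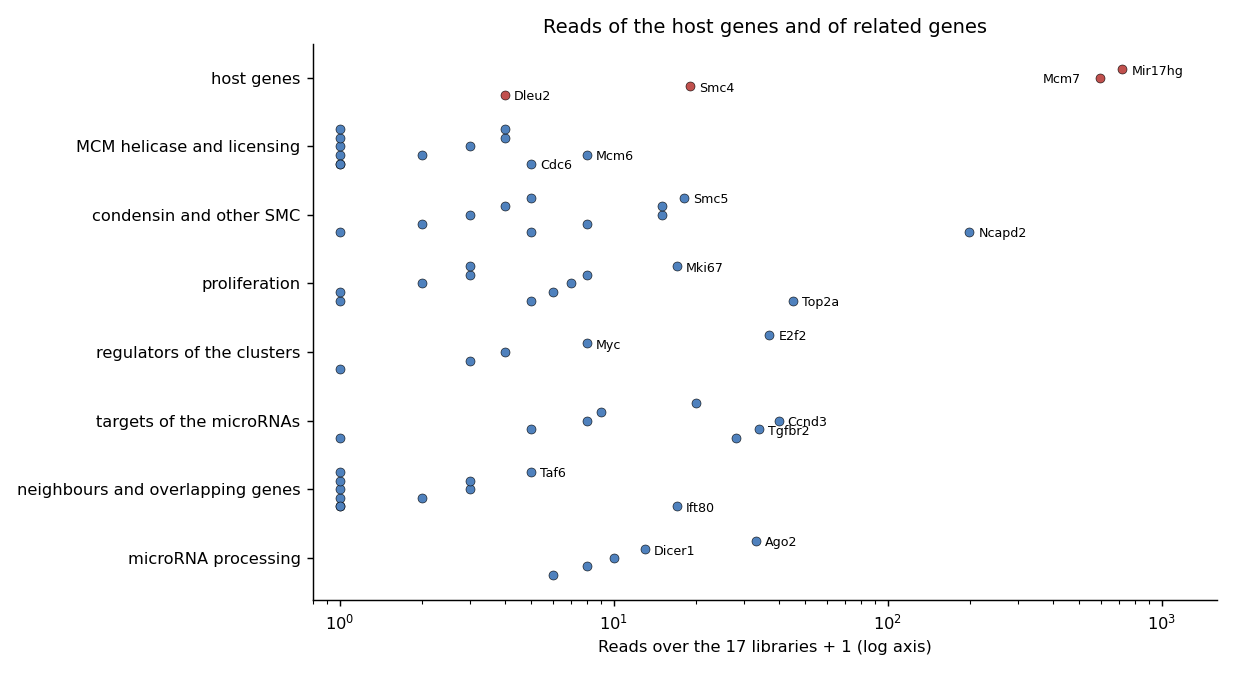
Reads over the 17 libraries plus 1, on a log axis, of the 4 host genes (red) and of the genes in 7 related lists (blue), with 1 point per gene and the best-read genes named. Mir17hg (718 reads) and Mcm7 (596) lie above every listed gene, of which Ncapd2 (198) comes next.

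Markers of cells that release RNA into plasma overlapped between the groups, and few of them passed a test. The 10 erythroid markers summed to 10069 to 25368 CPM in AG (median 16138), 2929 to 19086 in MG (median 8905) and 6239 to 18807 in GC (median 8397), and none of them was at 0. Of these, Bpgm, which makes the red cell regulator of hemoglobin, was 1 of the 4 genes among 272 (1.47%) that passed in AG against GC, with a log2 fold change of 1.85 ± 0.46 (SE, adjusted p = 0.0335 in the edgeR quasi-likelihood test). It did not pass in the fit of 6270 genes, nor without GC replicate 1, 2, 3 or 5, where no gene passed. The platelet markers summed to medians of 1826, 2273 and 3003 CPM in AG, MG and GC, and the 8 leukocyte markers to 209, 209 and 161, with 1 of the 8 at 0. The 7 liver markers had medians of 69.5, 227 and 75.1 CPM, and Alb, serum albumin, was among the 0.159% of 6270 genes that passed in MG against GC, with a log2 fold change of 4.03 ± 0.72 (SE, adjusted p = 6.3e-05 in the edgeR quasi-likelihood test). MG replicate 6 held 294 of the 374 Alb reads of MG, and without it, in a fit added after the data were seen, the value was 1.83 ± 0.70 (adjusted p = 0.373). Alb also did not pass with the replicate block (1.43, adjusted p = 1.0) or in the fit of 272 genes (4.27 ± 1.46, adjusted p = 0.604). The 5 skeletal muscle markers had medians of 26.6, 17.6 and 33.4. After TMM scaling, the erythroid sum and both readable hosts had their highest medians in AG. In CPM of all counts, with no factors, the erythroid medians were 9597 in AG, 13084 in MG and 9588 in GC, the platelet medians 1187, 3115 and 4059, and the leukocyte medians 121, 279 and 211, so that AG turned from joint highest to lowest in leukocyte markers. On that scale the medians of Mir17hg were 308 in AG and 304 in MG, and that of Mcm7 stayed highest in AG. The part of red cell RNA in the host values was not tested.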

How the data were processed

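Per the labels, plasma cfRNA of 17 mice was profiled and mapped to mm10. Per the study's methods, a kit for small RNA was used and the authors quantified genes in CLC Genomics Workbench. The deposited count is reads per gene without normalization. The deposited RPKM scales reads by gene length and mapped reads, and the deposited TPM was not used. Read assignment, strand and multiple matches are not given in the sources used here, so genes that overlap or share sequence can share reads.

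Groups came from the treatment label. The 4 members and all gene lists were chosen with earlier results of these data known. Counts were fitted in R 4.3.3 with edgeR 4.0.16 (TMM scaling, quasi-likelihood test, all 17 libraries, no covariate) over the 272 genes kept by filterByExpr. Smc4 was taken from the same fit over 6270 genes with at least 5 reads. Benjamini-Hochberg adjustment ran over all genes of a fit, with a threshold of 0.05. SE is the absolute log2 fold change divided by the square root of F. Log2 CPM used a prior count of 2, and limma 3.58.1 a pseudocount of 1 on RPKM, which understates changes of low genes. Exact permutation tests used scipy 1.17.1. Reads behind RPKM were recovered with GENCODE M21 lengths. Named genes are the members, their microRNAs, the 3 genes most like each member, the 4 most-read genes of each list and any list gene past the threshold. Also named are the 4 dominant genes and the microRNA genes with a shared seed and an RPKM above 0. Mcm2, Mcm5, Smc2, Rrm2 and Mycn are named outside that rule. A gene of the target list is not reported here. The scripts were tested on simulated counts with known changes. The simulation used a common composition for all libraries and a set spread, so it does not measure how well the scaling holds in these data.

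Between libraries of a group the chi-square per degree of freedom was at least 5.46 over 40 pairs, so no library was counted as a duplicate. Alternatives covered scaling (RLE, none), the filter, the 4 dominant genes left out, DESeq2 1.42.0, edgeR's exact test, limma, only the groups compared, a replicate block, and each replicate left out. SEs and ranges of 2 SE come from the fits and include the spread between libraries, while the limit that a count of 0 allows covers counting error only. No batch or date is given for the libraries.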

Additional observations from a re-analysis of the deposited data

Results flagged for a closer look

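In MG replicate 4 Mir17hg was at 624.8 CPM, far from the other 5 MG libraries, which lay between 173 and 258 CPM. The gap to the next library was 0.811 of the range of the group. On the deposited RPKM this library did not stand apart, at 2.22 for Mir17hg against 2.01 to 4.02 over the MG libraries, and its Mcm7, at 1.11, lay below the highest of MG, 1.26. The RPKM values of this library imply 9796884 mapped reads, the most of all libraries, beside 116902 counts. Without MG replicate 4 the log2 fold change of Mir17hg in MG against AG was −1.12 and in MG against GC 0.44. On the CPM scale Mcm7 was also highest of MG in this library, at 390 CPM. Dleu2 stood alone at 26.1 CPM in AG replicate 6, from 2 reads, and at 5.2 CPM in MG replicate 1, from 1 read. A group in which a single library has reads is always marked in this way, with a gap equal to the whole range, so these marks carry no weight. Of the 11 groups examined 3 were marked. Among the 9 with reads in several libraries 1 was marked, where 0.45 was the nominal number by chance. The genes share the scaling factors of their libraries and Smc4 was at 0 in many libraries, so that number is only rough.

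Mir92-2 carried signal outside the counts. Its count was 0 in all libraries, but its RPKM values stand for 108 reads over the 17 libraries, 50 in AG, 36 in MG and 22 in GC. The groups overlapped and no test was made.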

How the results depend on the processing

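Every alternative kept the direction of AG against GC for Mir17hg and Mcm7 and of MG against AG for Mcm7, but both genes were chosen on these counts for being higher in AG than in GC, and all these comparisons use the same AG libraries, so none of the kept directions is a sign of stability. On total counts without scaling factors Mir17hg moved to 0.25 in MG against AG and 0.79 in AG against GC, where 48 genes passed in MG against AG and 9 in AG against GC, against 0 and 4 after TMM scaling. By limma on log2(RPKM + 1) AG against GC was 0.62 for Mir17hg and 0.82 for Mcm7, on a scale that compresses low values. RPKM also scales the libraries differently. With no pseudocount the ratio of the AG to the GC mean was 1.83 for Mir17hg and 2.43 for Mcm7 in RPKM. In TMM-normalized CPM these ratios were 2.92 and 4.23. Smc4 changed sign without passing any test. It was 0.17 in MG against AG and −0.60 in AG against GC on total counts, and AG against GC was −0.023 by DESeq2, which gave no adjusted p, and −0.046 by limma. Leaving out 1 library at a time, Smc4 ran from −1.50 to 0.044 in MG against AG, −1.40 to 0.22 in MG against GC and −0.62 to 0.89 in AG against GC. Mir17hg ran from −1.12 to −0.55, 0.44 to 1.29 and 1.38 to 2.02, and Mcm7 from −2.26 to −1.47, −0.15 to 0.63 and 1.85 to 2.31 in the same order. The sign of Smc4 turned without AG replicates 1 or 2 or GC replicates 3 or 5 in AG against GC, without AG replicate 2 in MG against AG and without GC replicate 1 in MG against GC. That of Mcm7 in MG against GC turned without MG replicate 4. The 4 genes called in AG against GC became 0 to 7, with 0 without GC replicate 1, 2, 3 or 5. The lowest adjusted p of Smc4 over its alternatives was 0.686. Whether the replicate numbers pair the libraries cannot be told from these values. Same-numbered libraries deviated from their group means with r from −0.47 to 0.59 over 16 pairs. For replicate 1 r was 0.46 between AG and MG, 0.48 between AG and GC and 0.59 between MG and GC. Between AG and GC it was −0.42 for replicate 4 and −0.47 for replicate 5. With the replicate block AG against GC was 1.75 for Mir17hg, 2.05 for Mcm7 and 0.25 for Smc4. MG against AG was −0.79, −1.75 and −0.58, and MG against GC 0.96, 0.29 and −0.33. The block moved the genes called from 0 to 3 in MG against AG and from 4 to 5 in AG against GC over 272 genes, and over 6270 genes from 6 to 2 in MG against AG and from 10, Alb among them, to 0 in MG against GC. Dleu2, with 3 reads, entered no fit, and a minimum of 20 reads left no value for Smc4, so these alternatives were not run. Counts of a few reads per library limit Smc4 and Dleu2, and the choice of scaling limits every comparison with AG.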
